A study of Mus musculus with 32 samples.

Results

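The genes described here are 48 members of the ATF4 stress response and of the cytosolic tRNA synthetases, chosen by symbol and all found among the 53465 genes of the count table. They form 3 classes: 15 stress regulators, 14 genes of amino acid synthesis and transport, and 19 cytosolic tRNA synthetases. Expression was measured by bulk RNA sequencing of spleen cells from C57BL/6 mice aged 12 weeks. The mice had been given NP-CGG, a hapten on a carrier protein, with alum by the intraperitoneal route, and cells were taken 14 days later. From each sample 500 cells were sorted into the reagents of a low-input kit, SMART-Seq v4. All groups carried AID-cre, a Cre recombinase named for activation-induced deaminase, which germinal centre B cells express, and the controls carried it too. In the aPIK3CD groups PIK3CD signalling was activated, though Cre activity in naive B cells was not measured. The controls are called WT. The series asks how that activation alters naive B cells, germinal centre B cells and plasma cells. With 4 libraries each, naive B cells, plasma cells and the light and dark zone cells of the germinal centre made 8 groups over both genotypes.

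ATF4 is a transcription factor whose translation increases when the kinases PERK (Eif2ak3) or GCN2 (Eif2ak4), among others, phosphorylate the initiation factor eIF2. It acts with C/EBP family partners on genes that make and import amino acids, on the tRNA synthetases that load amino acids onto tRNA, and on regulators such as CHOP (Ddit3), TRIB3 and the phosphatase subunit GADD34 (Ppp1r15a), which reverses the phosphorylation. Plasma cells secrete antibody at a high rate, and that demand on protein synthesis and folding is the setting in which these genes are usually studied in B cells.

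The C/EBP-ATF response element, to which ATF4 binds with a C/EBP partner, has the core TGATGNAA. It was searched on both strands, where a match on the strand opposite to the gene reads TTNCATCA, in windows from 250 bases before to 50 bases after gene starts, taken from RefSeq on the GRCm38.p6 build. Windows were found for 38 members, 41 windows in all since some genes have more than 1 start. The core was in 12 of the 41 (29.3%), from 12 members, and in 1304 of all 32851 windows (3.97%). By class it was found in 4 of 14 regulators with a window, 3 of 12 amino acid genes and 5 of 12 synthetases. The endoplasmic reticulum stress element, ERSE, was in the window of 0 members and in 0.119% of all windows. A match is a description of the letters only. The 9 stretches below belong to members with calls in plasma cells, and their capitals mark the core.
Chac1: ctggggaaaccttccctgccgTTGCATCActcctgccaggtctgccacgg
Nupr1: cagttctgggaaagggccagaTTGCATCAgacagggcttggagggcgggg
Asns: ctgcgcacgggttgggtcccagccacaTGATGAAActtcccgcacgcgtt
Pycr1: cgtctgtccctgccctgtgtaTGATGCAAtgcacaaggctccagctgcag
Aars: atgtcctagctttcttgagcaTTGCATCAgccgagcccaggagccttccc
Gars: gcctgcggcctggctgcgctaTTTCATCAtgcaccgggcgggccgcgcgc
Iars: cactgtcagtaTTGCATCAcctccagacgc
Tars: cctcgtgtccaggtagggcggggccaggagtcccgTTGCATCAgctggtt
Yars: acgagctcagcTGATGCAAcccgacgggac

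The stretches of Chac1 (chr2:119351028-119351077), Aars (chr8:111033709-111033758), Gars (chr6:55037950-55037999), Iars (chr13:49682126-49682155) and Yars (chr4:129189895-129189924) lie on the plus strand. Those of Nupr1 (chr7:126625552-126625601), Asns (chr6:7693210-7693259), Pycr1 (chr11:120643823-120643872) and Tars (chr15:11399659-11399708) lie on the minus strand. The core began 193 bases before the start in Chac1, 112 in Aars, 110 in Nupr1, 103 in Pycr1, 30 in Gars, 23 in Asns and 15 in Tars. In Iars and Yars it began at base 8 and base 4 counted from the start. Aars held another match at base 10, outside the stretch shown. The other members that held the core were Atf3, Trib3 and Slc7a11.

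Library totals were 1965329 to 2820830 counts in naive B cells, 902088 to 1835558 in light zone B cells and 473149 to 788999 in plasma cells. Dark zone libraries held 1154809 to 1941224, except WT replicate 3 with 25797, where 1 count is worth 34.1 CPM. Plasma cell totals did not overlap those of naive or light zone libraries, so depth and population cannot be told apart. The 7 plasma cell markers (Sdc1, Prdm1, Xbp1, Irf4, Jchain, Tnfrsf17, Slamf7) summed to 12081 to 15815 CPM in plasma cells and to at most 2861 CPM in any other library. The genotype field of the 4 libraries titled aPIK3CD replicate 1 reads WT. They were grouped by title, and the plasma cell result is also given with them counted as WT. Pik3cd, the gene of the activated kinase, did not differ between genotypes past the test in any population (edgeR adjusted p = 1 in naive, 0.938 in dark zone, 0.894 in light zone and 0.0733 in plasma cells). In plasma cells Pik3cd measured 62.3, 64.9, 105 and 78.3 CPM with aPIK3CD and 106, 132, 121 and 127 CPM in WT. It was thus lower without overlap, as were 6.04% of genes tested. Exons of 14 members overlap another annotated gene, by 20.7% of exonic bases in Cebpb and less in the others, and reads in such stretches could belong to either. In bulk libraries, fewer cells of a type and less RNA per cell cannot be told apart. Nothing in the labels says that replicates came from separate mice, so p-values measure the spread between these libraries.

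Levels are CPM, a library's counts scaled to a common total, on library sizes adjusted by TMM, a normalization that centres most genes. Summed over its members, each class was highest in plasma cells. The stress regulators summed to 699 ± 18.7 CPM (SD, n = 4) in naive WT cells, 773 ± 27.2 in light zone WT cells and 1860 ± 67.3 in WT plasma cells. The amino acid genes summed to 894 ± 48.7, 1454 ± 131 and 5265 ± 352 CPM in the same order, with Slc3a2 alone giving 2345 ± 129 of the last. The synthetases summed to 3279 ± 130, 3723 ± 323 and 4968 ± 285 CPM. On this TMM scaling all 8 plasma cell libraries lay above every other library in each class. For the synthetases the margin was narrow, at 4688 CPM in WT plasma replicate 2 against 4611 CPM in light zone aPIK3CD replicate 1. Plain library totals gave lower plasma cell levels for Atf4 and Ddit3, and class sums on them were not compared. With aPIK3CD the plasma cell sums were 2011 ± 202, 6484 ± 489 and 6443 ± 442 CPM. The synthetase sums did not overlap between the genotypes in plasma cells, at 5970 to 7003 against 4688 to 5246 CPM, nor did the amino acid sums, at 6118 to 7189 against 4769 to 5527 CPM. The regulator sums did overlap.

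**Figure D1:**
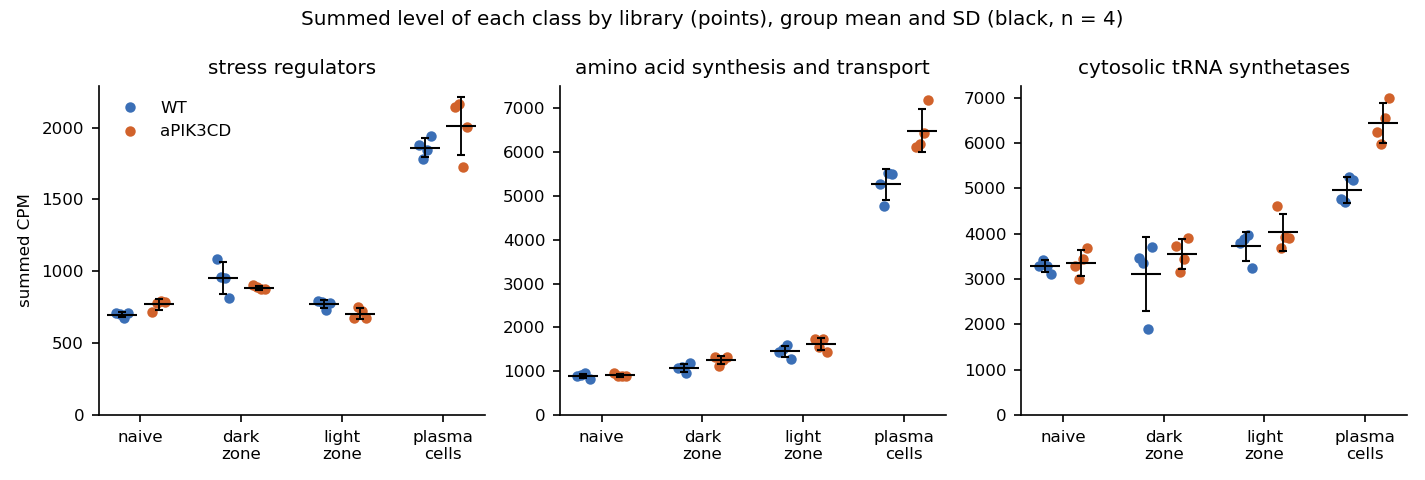
Summed CPM of the 3 gene classes by population, with 1 point per library, and the mean and SD (n = 4) of each group. Plasma cell points lie above all other points in each class, narrowly for the synthetases. The synthetase sum of dark zone WT replicate 3 (1907 CPM, total 25797 counts) lies below the rest.

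Of the 48 members, 35 had their highest mean in plasma cells among the WT groups and 37 among the aPIK3CD groups. These counts include members too scarce to test, and the share of all genes was not computed. All 8 plasma cell libraries lay above the other 24 for 20 of the 45 members kept by the filter in a fit of all libraries, 6 regulators, 8 amino acid genes and 6 synthetases, where 9.94% of 11736 genes tested did so. They lay below the other 24 for 0 members, where 3.65% of genes did. Per kilobase of exon, the highest mean levels in WT plasma cells were 665 CPM per kb for Slc3a2, 237 for Atf4, 171 for Nars, 164 for Asns and 147 for Pycr1. In naive WT cells the order was different, with Atf4 at 85.7, Farsb at 83.4 and Slc3a2 at 66 CPM per kb.

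**Figure D2:**
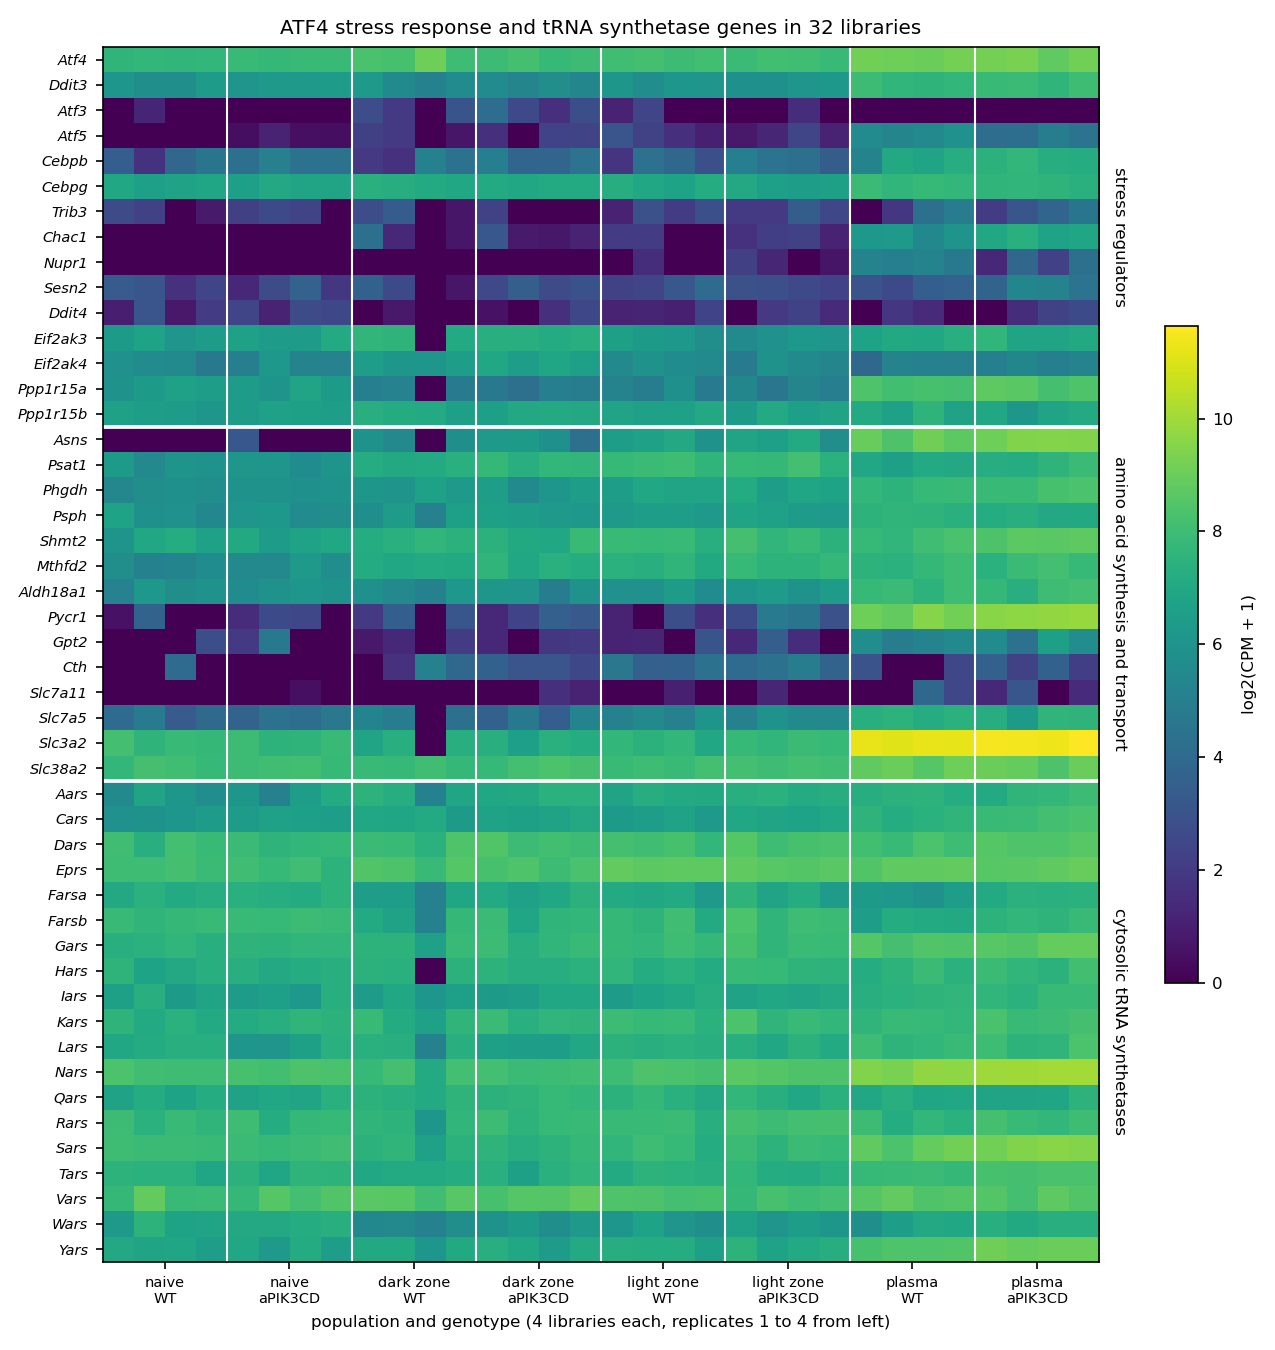
Heat map of log2(CPM + 1) for the 48 members in rows, grouped by class, and the 32 libraries in columns, grouped by population and genotype. Low values are dark. Chac1, Nupr1, Atf5, Pycr1 and Gpt2 are mostly darker outside the plasma cell columns than within them, and Slc7a11 and Ddit4 are dark in most columns. The synthetases were detected in every library but one, dark zone WT replicate 3, where 1 synthetase had 0 counts.

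Plasma cells were first compared with the light zone B cells, in each genotype alone. In WT cells 42 members could be tested, of which 26 rose and 3 fell in plasma cells by edgeR's quasi-likelihood test at an adjusted p below 0.05. Of all 9037 genes tested, 56.4% were called, 28.1% higher and 28.3% lower. The median log2 fold change was 0.80 over the members and -0.04 over all genes. In aPIK3CD cells 29 of 43 rose and 1 fell, where 61.2% of 9433 genes were called, 29.5% higher and 31.6% lower, and the medians were 0.88 and -0.07. Of the members that rose, 25 were the same in both genotypes, 96.2% of the WT list and 86.2% of the aPIK3CD list.

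Among the stress regulators, 9 of 11 tested rose in WT plasma cells and 0 fell, with a median log2 fold change of 1.76. Atf4, the transcription factor itself, measured 580, 543, 514 and 601 CPM in replicates 1 to 4 of WT plasma cells and 266, 299, 252 and 279 CPM in WT light zone cells. With aPIK3CD it measured 587, 624, 449 and 572 CPM in plasma cells and 246, 280, 266 and 233 CPM in light zone cells. Naive cells gave 193, 206, 199 and 210 CPM in WT and 234, 212, 237 and 226 CPM with aPIK3CD. Plasma cell libraries were thus the high ones, and they did not overlap the light zone or naive libraries in either genotype. Dark zone cells gave 314, 300, 545 and 264 CPM in WT, the 545 from the library of 25797 counts, and 252, 296, 224 and 250 CPM with aPIK3CD. Leaving that library aside, every plasma cell library lay above the other 23, which holds for 21 members and 10.7% of genes tested. The log2 fold change of Atf4 in plasma cells against the light zone was 1.07 (SE 0.13, edgeR adjusted p = 6.71e-06) in WT and 1.13 (SE 0.12, edgeR adjusted p = 2.87e-06) with aPIK3CD.

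Ddit3, which encodes CHOP, a partner and target of ATF4, measured 249, 203, 187 and 207 CPM in WT plasma cells and 71.1, 50.6, 68.5 and 65.4 CPM in WT light zone cells. With aPIK3CD the values were 240, 248, 197 and 262 CPM against 56.9, 56.4, 66 and 73.8 CPM. Each plasma cell library exceeded each light zone library, with log2 fold changes of 1.76 (SE 0.18, edgeR adjusted p = 9.24e-07) and 1.90 (SE 0.15, edgeR adjusted p = 1.07e-07). Naive cells gave 54.2 to 85.2 CPM, and dark zone cells 34.1 to 78.8 CPM, so the 3 B cell populations overlapped one another and plasma cells stood above them.

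Ppp1r15a, the inducible phosphatase subunit, measured 351, 273, 305 and 292 CPM in WT plasma cells, 35.6, 29.7, 56.4 and 25.9 CPM in WT light zone cells and 62.4, 81.1, 100 and 88 CPM in WT naive cells. The 3 populations did not overlap, with the light zone lowest. Its log2 fold change in plasma cells against the light zone was 3.05 (SE 0.23, edgeR adjusted p = 3.55e-08) in WT and 3.49 (SE 0.19, edgeR adjusted p = 1.92e-09) with aPIK3CD. Its constitutive counterpart Ppp1r15b was not called in that comparison in either genotype. Of the kinases, Eif2ak3 (PERK) rose by 0.82 (SE 0.21, edgeR adjusted p = 0.00418) in WT and 1.19 (SE 0.22, edgeR adjusted p = 0.00037) with aPIK3CD, while Eif2ak4 (GCN2) was not called. Eif2ak3 was not highest in plasma cells alone. It measured 106 to 159 CPM in WT plasma cells and 204, 189, 0 and 139 CPM in the WT dark zone, the 0 from the library of 25797 counts. With aPIK3CD the ranges were 111 to 204 CPM and 142 to 162 CPM. Plasma cells were not tested against the dark zone.

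Chac1, a glutathione-degrading enzyme downstream of ATF4, had 0 counts in all 8 naive libraries and 0 to 3.74 CPM in the light zone. Its dark zone values ran from 0 to 18.4 CPM, the highest in WT replicate 1 and the next, 7.91 CPM, in aPIK3CD replicate 1. In plasma cells it measured 72.5, 77.9, 42.6 and 64.4 CPM in WT and 126, 166, 107 and 114 CPM with aPIK3CD. Against naive cells that is at least 218-fold higher in WT and at least 462-fold higher with aPIK3CD, taking 3 counts over the naive group as the floor (0.285 and 0.276 CPM). Atf5, a related transcription factor, measured 39 to 57.5 CPM in WT plasma cells and had 0 counts in naive WT cells, at least 165-fold lower by the same floor. Nupr1, a small stress-induced chromatin protein, measured 36.2, 31.2, 35.8 and 25.3 CPM in WT plasma cells and 60 counts in all, against 3 counts in the light zone, a ratio of 66.4 (exact 95% interval 21.6 to 331, counting error only). Cebpb, a C/EBP partner, measured 36.2, 132, 112 and 150 CPM in WT plasma cells and 2.49 to 20.2 CPM in WT light zone cells (log2 fold change 3.30, SE 0.50, edgeR adjusted p = 5.59e-05). WT plasma replicate 1 was the low one of its group for Cebpb, yet above the whole light zone range. Cebpg, another C/EBP partner, rose by 0.78 (SE 0.17) in WT and 0.88 (SE 0.15) with aPIK3CD.

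Some regulators were scarce in every population. Atf3, another stress-induced factor, had 0 counts in all 8 plasma cell libraries, which allows a level of up to 1.62 CPM in WT and 1.31 CPM with aPIK3CD. Its highest value was 16.8 CPM, in dark zone aPIK3CD replicate 1. Trib3, a pseudokinase that restrains ATF4, reached 29.9 CPM in WT plasma replicate 4 and was 0 in replicate 1, and Ddit4, an inhibitor of mTORC1 signalling, stayed at or below 7.28 CPM in all 32 libraries. Sesn2, a leucine sensor, was called in aPIK3CD plasma cells against the light zone (log2 fold change 2.29, SE 0.45, edgeR adjusted p = 0.000541) and could not be tested in WT.

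**Figure D3:**
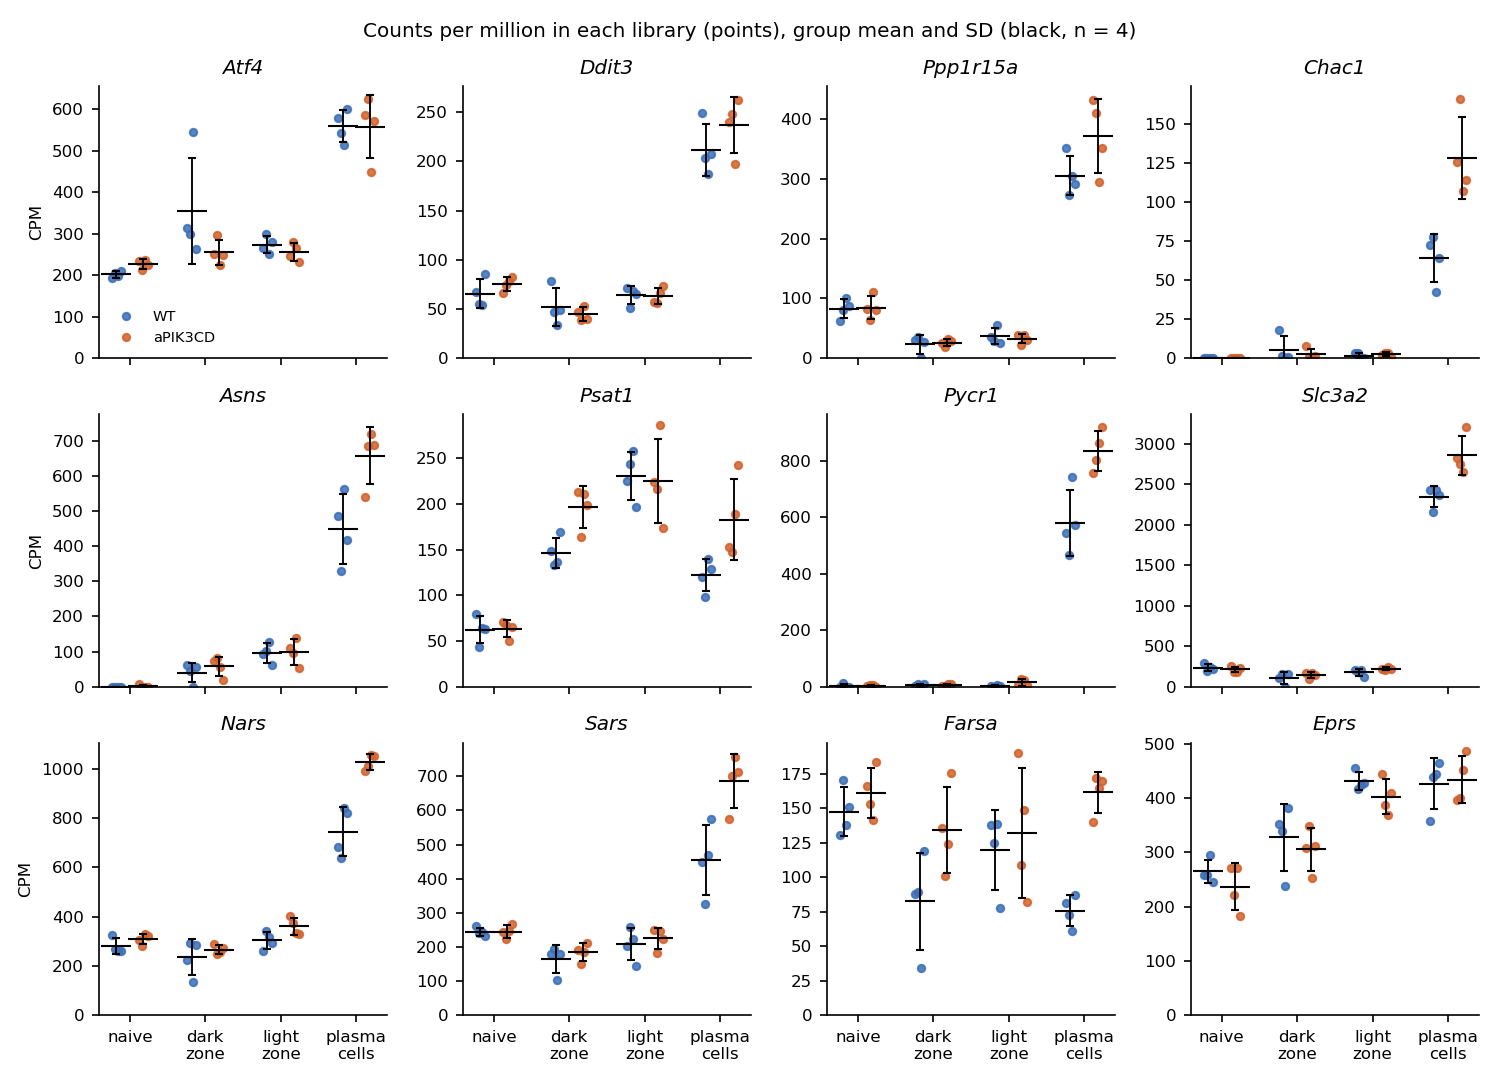
CPM of 12 members in each library (points, WT and aPIK3CD in different colours) by population, with group mean and SD (n = 4) in black. Atf4, Ddit3, Ppp1r15a, Chac1, Asns, Pycr1, Slc3a2, Nars and Sars are highest in plasma cells, Psat1 is highest in the light zone, and WT plasma cells are low for Farsa.

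Of the amino acid genes, 9 of 12 tested rose in WT plasma cells against the light zone and 1 fell, and with aPIK3CD 10 of 13 rose and 1 fell. Slc3a2, the heavy chain shared by several amino acid transporters, measured 2430, 2156, 2425 and 2370 CPM in WT plasma cells and 209, 177, 208 and 120 CPM in WT light zone cells. With aPIK3CD the plasma cell values were 2822, 2749, 2647 and 3201 CPM. Outside plasma cells the highest value in any library was 290 CPM, in naive WT replicate 1. The log2 fold change was 3.75 (SE 0.17, edgeR adjusted p = 2.74e-10) in WT and 3.68 (SE 0.09, edgeR adjusted p = 4.28e-12) with aPIK3CD. Slc7a5, the leucine transporter that pairs with it, rose by 1.98 (SE 0.23) and 1.75 (SE 0.27), and the glutamine transporter Slc38a2 by 0.95 (SE 0.16) and 0.74 (SE 0.13), in WT and aPIK3CD respectively. The cystine transporter Slc7a11 was scarce, with 10 counts in WT plasma cells and 2 in WT light zone cells.

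Asns, which makes asparagine, had 0 counts in the 4 naive WT libraries and 7.94, 0, 0 and 0 CPM in naive aPIK3CD cells. It measured 91.7, 102, 128 and 61.2 CPM in WT light zone cells and 485, 330, 562 and 417 CPM in WT plasma cells. With aPIK3CD the light zone gave 110, 95.4, 139 and 52.3 CPM and plasma cells 539, 685, 719 and 686 CPM. The levels stepped up from naive to light zone to plasma cells without overlap. Against naive WT cells, Asns was at least 356-fold higher in the light zone and at least 1616-fold higher in plasma cells. The step from light zone to plasma cells was 2.25 (SE 0.22, edgeR adjusted p = 6.2e-07) in WT and 2.73 (SE 0.23, edgeR adjusted p = 1.53e-07) with aPIK3CD on the log2 scale.

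Pycr1, the last enzyme of proline synthesis in mitochondria, measured 544, 465, 741 and 571 CPM in WT plasma cells and 1.25, 0, 6.04 and 2.07 CPM in WT light zone cells. With aPIK3CD the values were 757, 803, 863 and 918 CPM against 5.05, 26.4, 22.4 and 6.39 CPM. All 8 plasma cell libraries stood far above the rest. The fitted log2 fold change was 7.79 (SE 0.40, edgeR adjusted p = 1.14e-09) in WT, where the light zone held under 10 counts per library on average, and 5.79 (SE 0.35, edgeR adjusted p = 5.25e-09) with aPIK3CD. Aldh18a1, the first enzyme of the same pathway, rose by 1.88 (SE 0.20) and 1.61 (SE 0.19), and Gpt2, the mitochondrial alanine aminotransferase, by 4.34 (SE 0.67) and 3.98 (SE 0.72).

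The serine pathway did not move as one. Phgdh, its first enzyme, rose in plasma cells against the light zone by 0.99 (SE 0.16) in WT and 1.26 (SE 0.16) with aPIK3CD, and Psph, its last, by 1.20 (SE 0.16) and 0.64 (SE 0.17). Psat1, the enzyme between them, measured 120, 98.7, 140 and 129 CPM in WT plasma cells and 225, 244, 258 and 197 CPM in WT light zone cells. Every WT light zone library lay above every WT plasma cell library, and Psat1 fell by 0.88 on the log2 scale (SE 0.17, edgeR adjusted p = 0.000385). With aPIK3CD it measured 153, 147, 189 and 243 CPM in plasma cells and 224, 216, 286 and 174 CPM in the light zone, which overlapped (log2 fold change -0.29, edgeR adjusted p = 0.181). Mthfd2, a mitochondrial folate enzyme, was not called between plasma cells and the light zone in either genotype, and Shmt2, which precedes it, was called only with aPIK3CD (0.82, SE 0.15, edgeR adjusted p = 0.000309). Whether this step alone differs between the genotypes was not tested. The interaction below asks whether the genotype effect differs among all populations together. Neither Psat1 (edgeR adjusted p = 0.737) nor Shmt2 (edgeR adjusted p = 0.85) passed it.

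Of the 19 cytosolic synthetases, all of which were tested, 8 rose and 2 fell in WT plasma cells against the light zone, and 10 rose and 0 fell with aPIK3CD. Nars, the asparaginyl-tRNA synthetase, measured 684, 636, 841 and 819 CPM in WT plasma cells and 261, 340, 317 and 294 CPM in WT light zone cells. It did not overlap between these groups (log2 fold change 1.34, SE 0.14, edgeR adjusted p = 1.78e-06, and 1.52, SE 0.10, adjusted p = 1.03e-08 with aPIK3CD). Yars, for tyrosine, rose by 1.35 (SE 0.16) in WT and 1.84 (SE 0.15) with aPIK3CD. Sars, for serine, rose by 1.17 (SE 0.20) and 1.62 (SE 0.13), and Cars, for cysteine, by 1.05 (SE 0.17) and 1.25 (SE 0.13). Gars, Tars, Iars and Lars rose in both genotypes by 0.47 to 0.67 in WT and 0.69 to 0.89 with aPIK3CD. Dars, Eprs, Hars, Kars, Qars, Rars and Aars were not called in either.

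The subunits of the phenylalanyl-tRNA synthetase went the other way in WT cells. Farsa, the alpha subunit, measured 81.5, 72.7, 61.3 and 87.4 CPM in WT plasma cells, 138, 125, 139 and 77.8 CPM in WT light zone cells and 131, 171, 138 and 151 CPM in WT naive cells. All plasma cell libraries lay below the naive ones, and 1 light zone library, replicate 4, lay within the plasma cell range. Farsa fell by 0.64 on the log2 scale against the light zone (SE 0.22, edgeR adjusted p = 0.022) and by 0.92 against naive cells (SE 0.19, edgeR adjusted p = 0.0011). Farsb, the beta subunit, measured 90.6, 148, 140 and 133 CPM in WT plasma cells and fell by 0.63 (SE 0.22, edgeR adjusted p = 0.0226) and 0.72 (SE 0.18, edgeR adjusted p = 0.00434). With aPIK3CD neither was called against the light zone, and Farsa was close to its naive level (0.02, edgeR adjusted p = 0.92). Against the light zone, the WT calls of Farsa and Farsb were each lost in 3 of the 8 fits that left out 1 library, for Farsa without light zone replicate 1 or 3 or plasma replicate 3, for Farsb without light zone replicate 1 or 3 or plasma replicate 1 (edgeR adjusted p of these fits 0.00198 to 0.0784). Lars was lost without plasma replicate 1 or light zone replicate 2 (up to 0.0726), and the other 26 of the 29 WT calls held in all 8 fits. With aPIK3CD 28 of 30 held, the exceptions being Vars, lost without light zone replicate 1 or 3 or plasma replicate 3, and Cth, lost without plasma replicate 2 or 4 or light zone replicate 3 (edgeR adjusted p up to 0.0876).

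**Figure D4:**
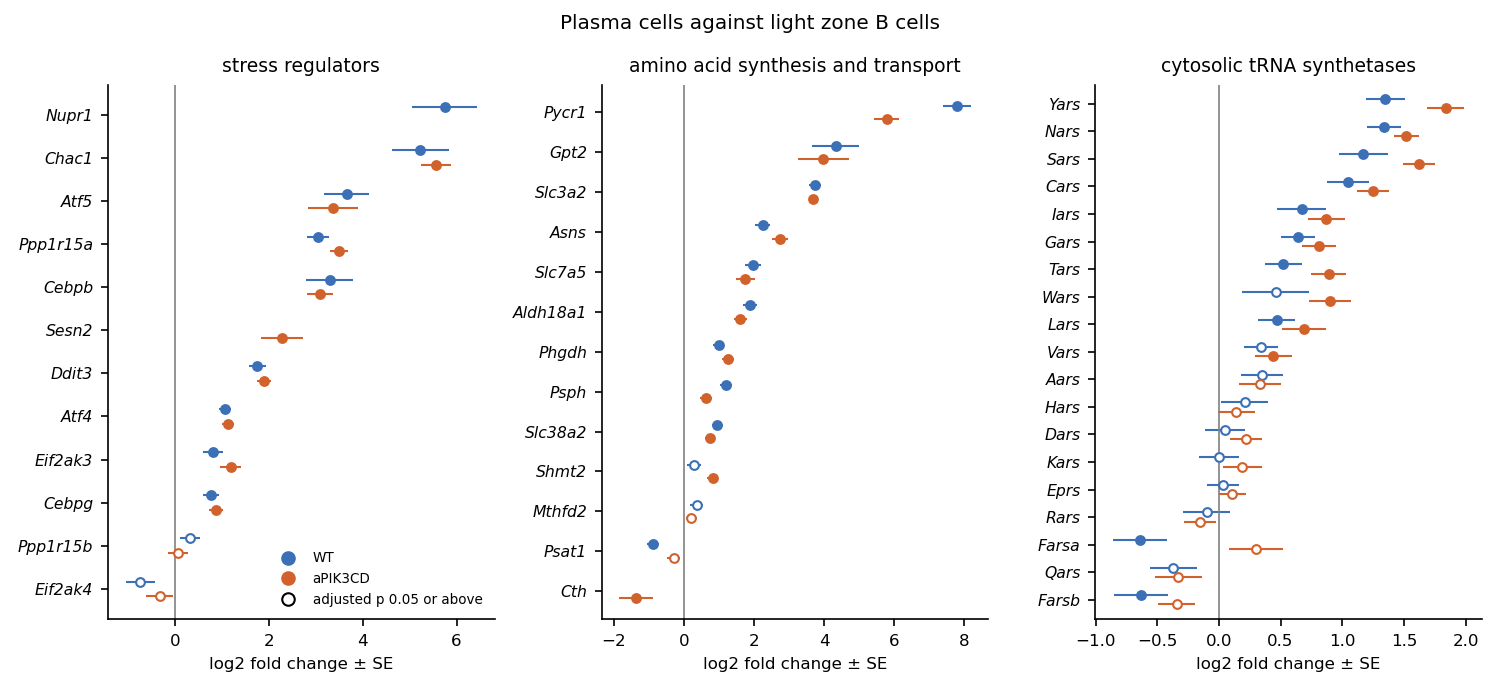
Log2 fold change with SE of plasma cells against light zone B cells for each tested member, in WT and aPIK3CD, with filled points at an edgeR adjusted p below 0.05. Most regulators and amino acid genes lie right of 0 in both genotypes, the synthetases spread around smaller values, and Farsa and Farsb lie left of 0 with filled points in WT alone.

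Other genes of the pathway, in 7 lists chosen with earlier results of these data known, give the surroundings of these values for plasma cells against the light zone. Of all genes tested there, 28.1% rose and 28.3% fell in WT, and 29.5% rose and 31.6% fell with aPIK3CD. Of 13 tested among 21 other ATF4 or CHOP targets and partners, 9 rose and 1 fell in each genotype, with a median of 1.95 in WT. They include Pck2, a mitochondrial gluconeogenic enzyme (2.41, SE 0.22), the autophagy receptor Sqstm1 (2.13, SE 0.19) and Herpud1, of endoplasmic reticulum degradation (2.72, SE 0.17), all in WT, while Sesn3 fell (-3.59, SE 0.32). All 10 genes of the ATF6 and IRE1 arms of the unfolded protein response rose in both genotypes, with medians of 3.53 and 3.38, among them the chaperone Hspa5 (2.19, SE 0.11 in WT). Of 4 genes for scaffolds of the multisynthetase complex and for another cytosolic synthetase, 1 rose and 0 fell in WT, and 1 rose and 2 fell with aPIK3CD. The one that rose was Mars, the methionyl-tRNA synthetase, by 0.93 (SE 0.22) in WT and 1.27 (SE 0.23) with aPIK3CD.

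In the remaining lists, calls lower in plasma cells were as many as or more than calls higher. The shares of all genes were 28.1% higher and 28.3% lower in WT, and 29.5% and 31.6% with aPIK3CD. The calls of the other amino acid transporters in WT were near those shares in both directions. Of the mitochondrial tRNA synthetases 1 of 16 tested rose in WT, Lars2 (1.45, SE 0.24), and 4 fell, Sars2 among them (-1.74, SE 0.34), with a median of -0.56. With aPIK3CD 3 of 17 rose and 6 fell. Of the other amino acid and one-carbon enzymes 1 of 14 rose and 7 fell in WT, and 3 of 15 rose and 9 fell with aPIK3CD. Shmt1, the cytosolic counterpart of Shmt2, fell from 128 ± 24 CPM (SD, n = 4) in WT light zone cells to 5.48 ± 3.77 CPM in WT plasma cells (-4.39, SE 0.35). Of the other amino acid transporters 2 of 7 rose and 2 fell in WT, and 2 rose and 3 fell with aPIK3CD. Slc7a3, a cationic amino acid transporter, rose by 4.65 (SE 0.82) and Slc1a4, a neutral one, by 2.74 (SE 0.43) in WT. Of the other eIF2 kinases and the subunits of eIF2 and eIF2B, 0 of 9 rose and 4 fell in WT, and 3 of 10 rose and 3 fell with aPIK3CD.

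Against naive B cells the picture was broader. In WT plasma cells 33 of 43 tested members rose and 2 fell, where 49.6% of 9768 genes were called, 25.4% higher and 24.2% lower, and the median log2 fold change was 1.05 over the members and -0.09 over all genes. With aPIK3CD 33 of 42 rose and 0 fell, where 52.8% of 9813 genes were called, 26.5% higher and 26.2% lower, with medians of 1.30 and -0.08. The lists of members that rose shared 30, 90.9% of each. All 12 amino acid genes tested rose in both genotypes, with medians of 2.20 and 2.16, Psat1 and Mthfd2 included (1.02, SE 0.22, and 2.32, SE 0.22, in WT). Of the regulators 10 of 12 rose in WT and 8 of 11 with aPIK3CD, and of the synthetases 11 of 19 and 13 of 19. Atf4 rose by 1.51 (SE 0.13, edgeR adjusted p = 2.79e-07) in WT and 1.31 (SE 0.11, edgeR adjusted p = 1.05e-06) with aPIK3CD. Eprs, the bifunctional glutamyl and prolyl synthetase, rose by 0.73 (SE 0.14) and 0.89 (SE 0.14). In WT, 30 of the 35 calls held in all 8 fits with 1 library left out. Tars, Eif2ak3, Kars, Iars and Ppp1r15b were lost in 2 to 6 of them, each without at least 2 of the plasma cell libraries in turn, and Tars, Kars and Ppp1r15b also without naive replicate 4 and Kars without naive replicate 2 (edgeR adjusted p up to 0.195). With aPIK3CD 32 of 33 held, the exception being Gpt2, lost without plasma replicate 1, 3 or 4 or naive replicate 1 or 4 (up to 0.122).

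The light zone was then compared with naive B cells, to see which members already differed between these populations. In WT 11 of 39 tested members rose and 1 fell, where 40% of 10459 genes were called, 19.8% higher and 20.2% lower. With aPIK3CD 16 of 40 rose and 3 fell, where 42.6% of 10353 genes were called, 21.8% higher and 20.8% lower. The member medians were 0.21 and 0.33, against -0.04 and -0.02 over all genes. The members called were 12 of 39 and 19 of 40, a share below that of all genes in WT and near it with aPIK3CD. The amino acid class had the most calls, 6 of 11 in WT and 9 of 12 with aPIK3CD, all higher, with medians of 1.10 and 1.18.

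Called higher in the light zone in both genotypes were Asns, Psat1, Phgdh, Shmt2, Mthfd2, Slc7a5 and 4 synthetases, Aars, Eprs, Gars and Kars. Psat1 measured 79.3, 43.7, 64.2 and 62.7 CPM in naive WT cells, below the whole light zone range given above (log2 fold change 1.91, SE 0.19, edgeR adjusted p = 4.47e-06, and 1.83, SE 0.17, adjusted p = 7.44e-06 with aPIK3CD). Mthfd2 measured 52.7, 33.2, 36.7 and 50.2 CPM in naive WT and 174, 163, 195 and 133 CPM in light zone WT cells, without overlap (1.97, SE 0.21, edgeR adjusted p = 7.09e-06). Phgdh rose by 1.10 (SE 0.19), Shmt2 by 0.98 (SE 0.23) and Slc7a5 by 1.37 (SE 0.38) in WT, and all 3 were also called with aPIK3CD. Cth, a cysteine-making enzyme, had 0 counts in naive aPIK3CD cells and was at least 69.5-fold higher in the light zone, but in naive WT cells replicate 3 alone gave 16 CPM and the others 0, and it was not called there.

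Among synthetases Eprs measured 455, 416, 425 and 428 CPM in light zone WT cells and 259, 259, 296 and 246 CPM in naive WT cells, without overlap (0.71, SE 0.12, edgeR adjusted p = 0.000307). Aars, for alanine, rose by 0.93 (SE 0.26), Kars, for lysine, by 0.48 (SE 0.17) and Gars, for glycine, by 0.40 (SE 0.15). The WT calls of Kars and Gars were each lost in 6 of the 8 fits with 1 library left out, in those without light zone replicates 1, 2 or 3 or naive replicates 2 or 4, for Kars also naive replicate 3 and for Gars naive replicate 1 (edgeR adjusted p 0.00679 to 0.158). With aPIK3CD Wars, for tryptophan, fell by 0.76 (SE 0.16, edgeR adjusted p = 0.00254), and 12 of the 19 calls held in all 8 fits. Of the others Kars was lost without light zone or naive replicate 1, Psph without light zone replicate 1 or 2 or naive replicate 3, and Eif2ak3 without light zone replicate 1 or 2 or naive replicate 4. Rars, Pycr1, Gars and Aars were each lost in 5 to 7 fits, and every library of the comparison was among those whose omission lost at least 1 of these 4 (edgeR adjusted p up to 0.149). Atf4 rose by 0.45 in WT (SE 0.13, edgeR adjusted p = 0.0106, and 0.0501 without light zone replicate 2) and measured 0.18 with aPIK3CD (edgeR adjusted p = 0.162). Ppp1r15a fell in both genotypes, by 1.14 (SE 0.27, edgeR adjusted p = 0.00467) and 1.35 (SE 0.24, edgeR adjusted p = 0.000813), and rose again in plasma cells as given above. In WT, 5 members were called higher at both steps, from naive to light zone and from light zone to plasma cells (Atf4, Asns, Phgdh, Slc7a5 and Gars), 15 only at the later step among those tested at both, and Psat1 alone was called higher and then lower. Both steps share the light zone libraries.

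Between the light and dark zones few members were called. In WT 1 of 38 tested members was higher and 1 lower in the light zone, where 2.55% of 9639 genes were called, 1.3% higher and 1.26% lower. With aPIK3CD 2 of 39 were higher and 3 lower, where 6.04% of 9798 genes were called, 3.13% higher and 2.91% lower. Eif2ak3 was called in both. It measured 155, 162, 142 and 156 CPM in dark zone and 46.8, 59.2, 74.1 and 66.8 CPM in light zone aPIK3CD cells, which did not overlap, and fell by 1.31 on the log2 scale (SE 0.17, edgeR adjusted p = 0.000299). In WT it measured 204, 189, 0 and 139 CPM in the dark zone, the 0 from the library of 25797 counts, and 96.7, 80.4, 73.5 and 52.9 CPM in the light zone. It fell by 1.13 there (SE 0.24, edgeR adjusted p = 0.0133) and by 1.20 without the shallow library. That WT call was lost without dark zone replicate 1 or 2 (edgeR adjusted p over the 8 such fits 0.00452 to 0.103).

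Eif2ak4 fell in the light zone with aPIK3CD (-1.27, SE 0.23, edgeR adjusted p = 0.00362), from 120, 87.3, 117 and 92.9 CPM in the dark zone to 27.4, 60.6, 46.1 and 38.9 CPM. Both kinases that are members thus stood higher in the dark zone, without overlap, in that genotype. In WT Eif2ak4 was not called, but it too was higher without overlap, at 89.4, 71.4, 68.1 and 88.8 CPM against 43.7, 62, 48.9 and 45.6 CPM. The 68.1 came from the library of 25797 counts. The share of all genes without overlap between the zones was not computed. Slc3a2 (0.63, SE 0.16) and Nars (0.44, SE 0.11) rose and Vars (-0.51, SE 0.14) fell with aPIK3CD, and Psat1 rose in WT (0.64, SE 0.15, edgeR adjusted p = 0.0257). Each of these 4 calls was lost in 3 to 7 of the 8 fits that left out 1 library, Slc3a2 without light zone replicates 1, 3 or 4, Nars without light zone replicates 1, 2 or 3 or dark zone replicates 2 or 3, Vars in all but the fit without dark zone replicate 1, and Psat1 without dark zone replicates 1 or 2 or light zone replicates 1, 2 or 3. The edgeR adjusted p values of these fits reached 0.162.

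The aPIK3CD groups were compared with WT in each population. In plasma cells 4 of 42 tested members rose and 0 fell, where 3.2% of 7771 genes were called, 1.98% higher and 1.22% lower. They were Farsa, Yars and Cars among the synthetases and Chac1 among the regulators. The median log2 fold change was 0.25 over the members and -0.00 over all genes, and by class 0.07 for the regulators, 0.30 for the amino acid genes and 0.34 for the synthetases. At an unadjusted p below 0.05 stood 20 of the 42 members and 23.3% of all genes tested. The libraries of the genotypes did not overlap for 15 tested members that were higher with aPIK3CD and 3 that were lower, where 8.65% and 6.04% of genes did so.

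Farsa measured 140, 172, 165 and 170 CPM in aPIK3CD plasma cells, each above every WT plasma cell library, which lay at 61.3 to 87.4 CPM. Its log2 fold change was 1.07 (SE 0.17, edgeR adjusted p = 0.0172), and the call held in all 8 fits with 1 library left out. In the other populations the genotypes overlapped for Farsa, and the aPIK3CD plasma cell values lay within the range of naive cells, 131 to 184 CPM over both genotypes. Yars measured 559, 473, 517 and 519 CPM against 303, 348, 344 and 354 CPM in WT (0.58, SE 0.12, edgeR adjusted p = 0.0288). Cars measured 238, 246, 284 and 317 CPM against 190, 148, 172 and 193 CPM (0.59, SE 0.15, edgeR adjusted p = 0.0491). Chac1, whose values are given above, rose by 0.98 (SE 0.22, edgeR adjusted p = 0.0378). For these 3 members too, the genotypes did not overlap. The call of Yars was lost in 6 of the 8 fits (all but those without WT replicate 3 or 4, edgeR adjusted p up to 0.0784), and those of Cars and Chac1 in all 8, with 1 library left out (0.0559 to 0.129 and 0.0559 to 0.0998).

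Other synthetases lay on the same side without passing the test. In all, 16 of 19 had a log2 fold change above 0, where the median over all genes was -0.00. Higher without overlap were 9 of the 19, and 8.65% of all genes tested. The synthetases were measured in the same libraries, so they are not independent of one another. Nars measured 991, 1013, 1058 and 1051 CPM with aPIK3CD and 636 to 841 CPM in WT (0.43, edgeR adjusted p = 0.055). Farsb measured 181, 208, 191 and 226 CPM against 90.6 to 148 CPM (0.62, edgeR adjusted p = 0.061), so both subunits of the phenylalanyl enzyme were higher without overlap. Sars (0.56, edgeR adjusted p = 0.0733), Tars (0.40, 0.0815) and Dars (0.40, 0.104) followed, while Eprs measured -0.01 (edgeR adjusted p = 0.975). Of the amino acid genes, Shmt2 (0.62, edgeR adjusted p = 0.062), Pycr1 (0.49, 0.0652), Slc3a2 (0.25, 0.0719), Psat1 (0.55, 0.1) and Phgdh did not overlap between the genotypes either, all higher with aPIK3CD.

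Among the transcription factors, Atf4 measured 558 ± 75.7 CPM (SD, n = 4) with aPIK3CD and 559 ± 38.4 in WT plasma cells (-0.04, SE 0.13, edgeR adjusted p = 0.889), and Ddit3 237 ± 28.3 and 212 ± 26.4 CPM (0.13, SE 0.14, edgeR adjusted p = 0.611). Cebpb measured 170 ± 29.4 and 108 ± 50 CPM, overlapping (0.63, SE 0.30, edgeR adjusted p = 0.233), and Cebpg 188 ± 16.6 and 218 ± 18.7 CPM (-0.24, SE 0.13, edgeR adjusted p = 0.287). Atf5 measured 17.1, 17.2, 29.9 and 20.4 CPM with aPIK3CD and 47.6, 39, 44.3 and 57.5 CPM in WT, lower without overlap (-1.18, SE 0.31, edgeR adjusted p = 0.0575). Nupr1 measured 1.56, 13.4, 3.74 and 18.7 CPM against 25.3 to 36.2 CPM, also lower without overlap (-1.81, SE 0.51, edgeR adjusted p = 0.0678). The remaining member that was lower without overlap was Psph (-0.38, SE 0.13, edgeR adjusted p = 0.113).

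The number of members called depended on the setting, at 11 with DESeq2's Wald test, 14 with no filter on low counts and 12 with immunoglobulin and T cell receptor genes removed. When the libraries titled aPIK3CD replicate 1 were counted as WT, 0 members passed in plasma cells, and Farsa measured 0.91 (edgeR adjusted p = 0.203). The WT plasma cell libraries held 473149 to 704361 counts and the aPIK3CD ones 652722 to 788999. When the fit also held the log2 library total, an alternative chosen after seeing the data, 0 members passed and Farsa measured 1.33 (edgeR adjusted p = 0.111, over all alternatives 1.61e-05 to 0.203). The 12 markers of monocytes, macrophages and neutrophils summed to 319, 51.9, 446 and 244 CPM in WT and 254, 691, 241 and 659 CPM in aPIK3CD plasma cells, with S100a8, S100a9, Mpo and Elane at 0 in both, and the 10 T cell markers to 315 to 884 and 358 to 504 CPM. Their part in the genotype difference was not tested.

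**Figure D5:**
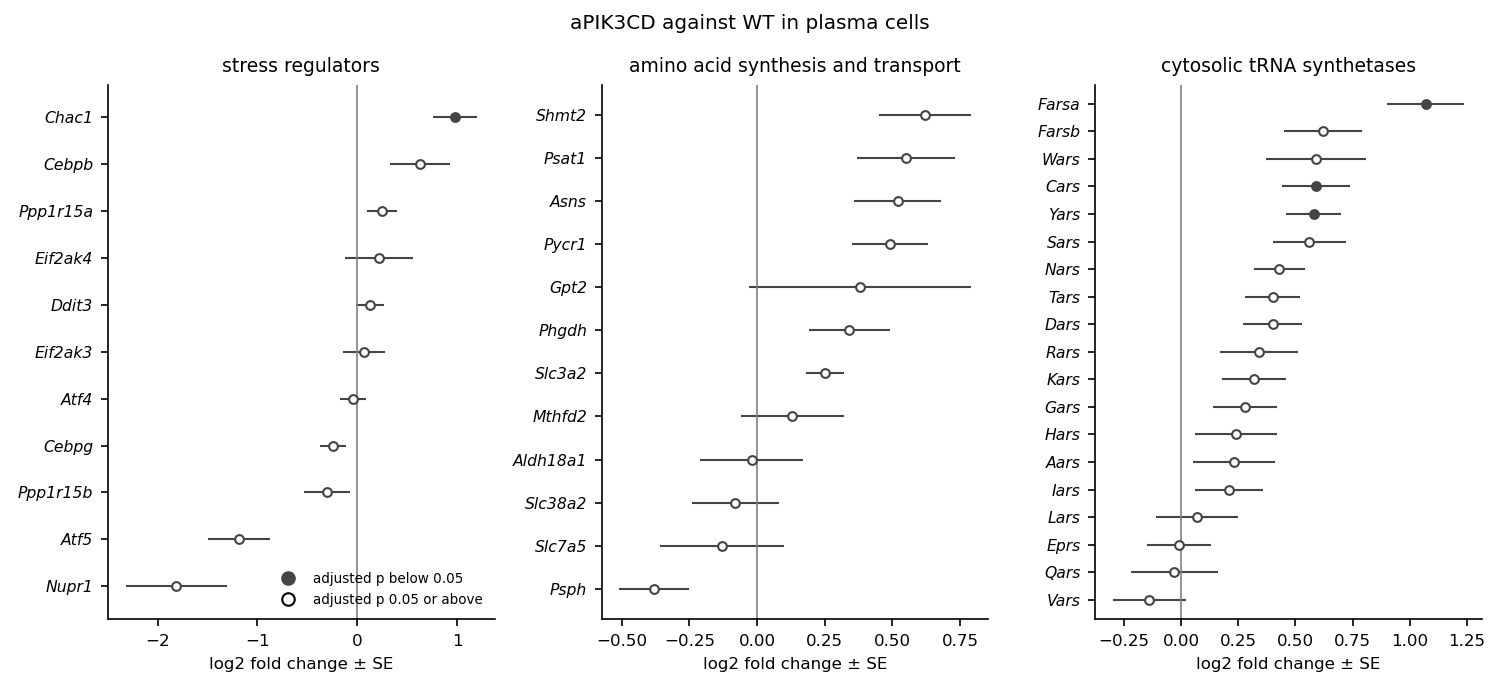
Log2 fold change with SE of aPIK3CD against WT in plasma cells for the 42 tested members by class, with filled points at an edgeR adjusted p below 0.05. Farsa, Cars, Yars and Chac1 have filled points, 16 of 19 synthetases lie right of 0, and Nupr1 and Atf5 lie farthest left with open points.

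In the other populations 0 members passed edgeR's test for genotype, as did 0% of genes in naive cells, 0.021% in dark zone (0.0105% in each direction) and 0% in light zone cells. DESeq2's Wald test also called 0 members in each. Since Cre activity in naive cells was not measured, 0 calls there do not show that activated PIK3CD leaves them unchanged. Members at an unadjusted p below 0.05 were 1 of 39 in naive cells, 5 of 39 in dark zone and 3 of 38 in light zone cells, where 3.06%, 7.5% and 6.63% of genes were. In naive cells it was Cars (0.44, SE 0.18, edgeR adjusted p = 1). The 5 of dark zone cells were led by Lars (-0.62, SE 0.19, with an edgeR adjusted p of 0.398) and Psat1 (0.40, SE 0.16, edgeR adjusted p = 0.575), and leaving out the library of 25797 counts again gave 0 calls. The 3 of light zone cells were Rars (0.37, SE 0.13, edgeR adjusted p = 0.702), Cars (0.38, SE 0.16, edgeR adjusted p = 0.717) and Cebpg (-0.36, SE 0.17, edgeR adjusted p = 0.753). Of the amino acid genes the smallest p values were those of Phgdh (0.24) and Mthfd2 (0.30) in naive cells, Psat1 and Slc38a2 (0.32) in dark zone cells and Slc3a2 (0.30) and Mthfd2 (0.26) in light zone cells. Cebpb measured 0.93, 1.12 and 0.86 in the same order, overlapping between the genotypes each time. Without overlap stood 2 tested members higher and 0 lower in naive cells (1.03% and 1.31% of genes), 1 and 0 in dark zone cells (2.94% and 1.44%), and 2 and 0 in light zone cells (2.43% and 2%). Cars was higher without overlap in naive, light zone and plasma cells, by little in naive cells (83 CPM or more against 82 or less). These 3 comparisons share no library, but their libraries may come from the same mice. They also share the doubtful genotype label of aPIK3CD replicate 1, so they are not taken as independent of one another. Atf4 in naive cells measured 227 ± 11.2 CPM with aPIK3CD and 202 ± 7.67 in WT, also without overlap (0.16, SE 0.11, edgeR adjusted p = 1). Whether the genotype effect differed among the 4 populations was tested in 1 fit of all 32 libraries. Of 45 members tested 0 passed, as did 0.0256% of 11736 genes, and the smallest values were those of Cth (edgeR adjusted p = 0.45) and of Atf5 and Farsa (both 0.511). A difference between plasma cells and the other populations in the genotype effect on Farsa was therefore not shown by this test. Among the 7 lists of other pathway genes, 3 genes passed the genotype test in plasma cells, all higher with aPIK3CD. Of all 7771 genes tested there, 3.2% passed, 1.98% higher. Of 11 other amino acid and one-carbon enzymes tested, Oat, ornithine aminotransferase, passed (0.80, SE 0.14, edgeR adjusted p = 0.0197). Of 10 genes of the ATF6 and IRE1 arms, Pdia4 and Edem1, of protein folding and disposal in the endoplasmic reticulum, passed (0.45, SE 0.09, and 0.33, SE 0.07, edgeR adjusted p = 0.0256 and 0.0371). So few calls are not read as a result for the lists.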

How the data were processed

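The authors deposited 1 table of counts per gene, whole numbers for 53465 genes in 32 libraries of 500 sorted cells. The submitters' processing notes name STAR 2.4.2a, HTSeq and Picard, with no roles. The genome build and the strand setting are not given in the sources used here. Genes without a name held 0.173% of counts. Members and all gene lists were chosen with earlier results of these data known.

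Each comparison was fitted alone on its 8 libraries with edgeR 4.0.16 in R 4.3.3 (TMM, filterByExpr with a minimum count of 10 and a minimum total of 15, quasi-likelihood F test, Benjamini-Hochberg adjustment over all genes tested, threshold 0.05). The scripts were tested on simulated data. Standard errors are the log2 fold change divided by the root of F. Levels are CPM on 1 TMM scaling of all 32 libraries, and lengths for levels per kb are GENCODE M21 exon unions. Alternatives were DESeq2 1.42.0 (size factors or its own test), no filter, leaving out immunoglobulin and T cell receptor genes, thinning, a saturation correction, 1 fit of all libraries, a replicate block, other labels for aPIK3CD replicate 1, a depth covariate and leaving out each library. Named by rule were every member called for genotype, the 2 of smallest p per class otherwise, and between populations up to 6 per class and direction with a mean of at least 10 CPM. Members named beyond the rule were chosen after their values were seen.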

Additional observations from a re-analysis of the deposited data

Results flagged for a closer look

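In 4 of 110 sets of 1 member in 1 group of 4 libraries, 1 library lay apart from the other 3, with a gap to its nearest neighbour above the 95% critical share of the group's range by Dixon's ratio. Chance flags about 1 in 20 groups. Cebpb measured 32.6 CPM in naive aPIK3CD replicate 2 and 18.8 to 20 CPM in the other libraries of its group. Yars measured 98.5 CPM in light zone WT replicate 4 and 146 to 150 CPM in the others. Cars measured 129 CPM in dark zone aPIK3CD replicate 4, against 97.9 to 103 CPM. Nars measured 327 CPM in naive WT replicate 1, against 258 to 269 CPM.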

How the results depend on the processing

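The 169 calls of single members and the other members named by rule, 189 results in all, gave 3065 values under alternative settings. Of these 0 reversed, 2888 kept their direction and side of the threshold, 168 lost the call and 9 gained one. In the 1352 pairs of a called member and a fit with 1 library left out, the call was absent in 127. The counts of members called moved most where few were called. For aPIK3CD against WT in plasma cells, 4 members passed as reported, 11 with DESeq2's Wald test, 12 when immunoglobulin and T cell receptor genes were removed, 14 with no filter on low counts, 0 with aPIK3CD replicate 1 counted as WT, 0 with the log2 library total in the fit (chosen after seeing the data), and 1 to 5 with 1 library left out. With no filter, 1 passed in light zone cells for genotype and 3 for the interaction, against 0 each. For the light zone against the dark zone, 2 passed in WT, 0 with DESeq2's Wald test, 1 in a fit of all 32 libraries and 0 to 4 with 1 library left out. With aPIK3CD 5 passed, 8 with DESeq2's Wald test, 10 with no filter and 2 to 7 with 1 library left out. The cause of these moves was not tested. In the 6 comparisons with naive cells or between plasma cells and the light zone, leaving out 1 library gave 10 to 14 and 13 to 18 members called for the light zone against naive cells (WT and aPIK3CD), 30 to 36 and 32 to 34 for plasma against naive cells, and 27 to 31 and 28 to 32 for plasma cells against the light zone.

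Within a genotype, libraries with the same replicate number share a sample name and a letter in their column names. The labels do not say whether they came from 1 mouse. Their deviations did not correlate above 0.1 for all pairs in any comparison. The highest set was the light against the dark zone with aPIK3CD, at 0.178, 0.188, 0.0499 and 0.0628. Each exceeded the highest correlation with another replicate number (0.0118, -0.014, 0.0474 and 0.0101), which held throughout in no other comparison. Whether libraries are paired is not settled by these values, and the main fits hold no block. With a replicate block, 2 members passed for genotype in plasma cells, 1 for the light against the dark zone in WT and 12 with aPIK3CD. The block gave 14 and 20 for the light zone against naive cells, 36 and 33 for plasma against naive cells and 29 and 30 for plasma cells against the light zone.

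Depth limits dark zone WT replicate 3 most, where 1 count is worth 34.1 CPM. In plasma cells 1 count is worth 1.56 to 2.6 CPM, so members below about 10 CPM there rest on few counts. Scaling by plain totals in place of TMM gave Atf4 at 456 and 450 CPM in WT and aPIK3CD plasma cells and 220 and 247 CPM in naive cells, and Ddit3 at 172 and 191 CPM in plasma cells.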
